A study of Mus musculus with 37 samples.

Results

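Liver RNA of XX mice with the Y665H substitution of STAT5B, histidine for tyrosine, was compared directly with that of XX mice with Y665F, phenylalanine for the same tyrosine. The members are the libraries whose titles give the female sex and the genotype Y665H or Y665F, 6 of each, 12 of the 37 liver libraries of the study. The 6 wild-type (WT) XX livers serve as a reference level, and 4 Y665H and 9 Y665F livers of XY mice are used to ask whether a difference was the same in the other sex. All mice were C57BL/6 and 2 months old, no treatment is named, and the labels do not say whether 1 or both alleles carried the substitution or whether mice were littermates. The labels place the substitution in the mouse and not in a cell type, so hepatocytes, blood cells and the organs that set hormone levels may all have carried it.

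Total RNA from frozen tissue was depleted of ribosomal RNA and sequenced in stranded read pairs. Library kits of different makers are named without saying which library was made with which, and a kit that followed genotype could not be told apart from genotype. Counts assigned to genes ran from 27176972 to 38818886 in the Y665H libraries and from 24388434 to 35860394 in the Y665F libraries. The 10 most abundant genes took 17.1% to 20.4% of the assigned counts in Y665H livers and 28.4% to 33.4% in Y665F livers. Reads in no annotated gene made up 7.21% to 15.3% of the counted items in Y665H libraries and 12.3% to 15.8% in Y665F libraries. Y665H replicate 6 alone held 15.3%, the other Y665H libraries 7.21% to 10.5%, and the WT XX libraries 9.59% to 14.7%. Apart from replicate 6, this share was lower in Y665H than in every Y665F library. With the share as a covariate, 6502 genes were called in the comparison below. The Y-linked Ddx3y had 0 counts in every XX library, and Alb, the hepatocyte product, was abundant in all of them. Gene totals cannot show a single changed codon, which leaves the genotype labels without a check.

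STAT5B is a transcription factor that growth hormone activates in hepatocytes: the growth hormone receptor switches on the kinase JAK2, STAT5B is phosphorylated and pairs through its SH2 domain, and the pair binds DNA at TTCNNNGAA motifs. The substituted tyrosine lies in that SH2 domain, and in published work Y665F has been described as an activating and Y665H as an impairing substitution. In mouse liver the hormone arrives in sharp pulses in males and almost continuously in females, and STAT5B turns this difference into sex-biased expression of cytochrome P450s, sulfotransferases and major urinary proteins. The repressors BCL6 and CUX2 act in the same circuit, BCL6 mainly in males and CUX2 in females.

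The Y665H and Y665F livers differed across more of the transcriptome than not. Of 15152 genes tested, 8564 (56.5%) differed at an adjusted p-value under 0.05 in a quasi-likelihood model of all 37 libraries, and this rule is what "called" means below. In Y665H, 4619 genes were called higher (30.5% of those tested) and 3945 lower (26.0%), and the counts of every list below stand against these shares. Most differences were small, with a median absolute size of 0.46 on the log2 scale among called genes. The larger ones ran mainly one way: of 1703 called genes with at least a 2-fold difference, 327 were higher in Y665H and 1376 lower. At 8-fold or more (a log2 difference of at least 3), 46 were higher and 128 lower. The overall split moved with the scaling: by total counts in place of TMM, 6127 genes were called higher and 2965 lower, and all genes shifted by a median of 0.11 on the log2 scale. The WT mean lay nearer the Y665H mean than the Y665F mean for 6406 called genes (74.8%), against 66.8% of all genes tested. The labels number the samples of a group without saying that each came from a separate mouse, so the p-values measure the spread between these samples, part of which may be technical.

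**Figure D1:**
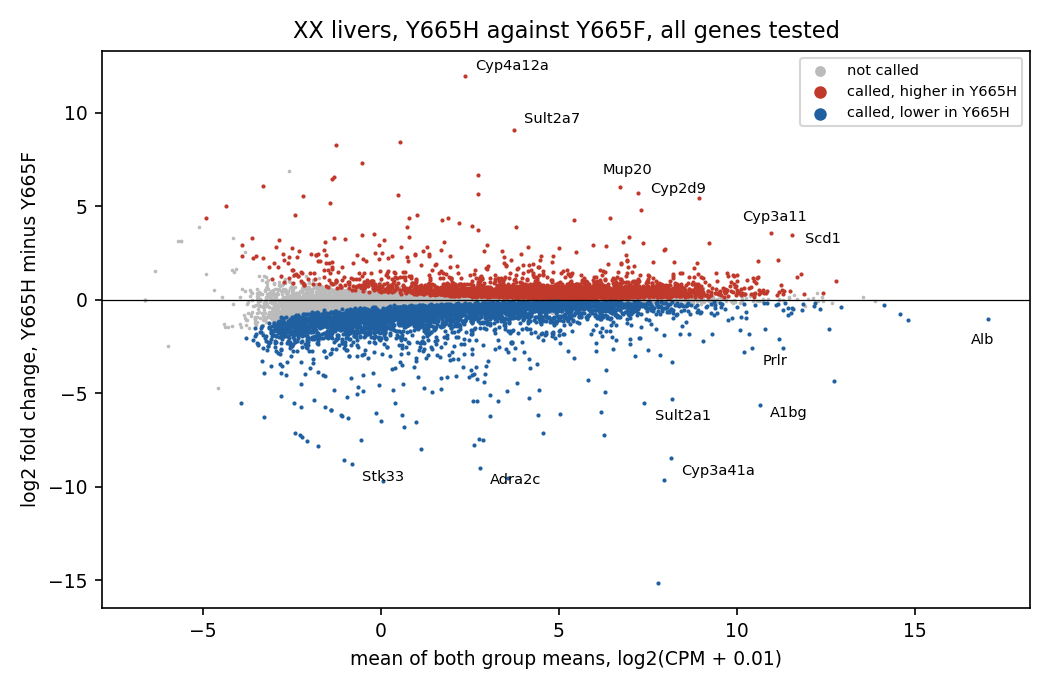
Each point is 1 of the 15152 genes tested in the XX livers; the x axis is the mean level of both groups as log2(CPM + 0.01), where CPM is the count scaled to library size, and the y axis is the log2 difference, Y665H minus Y665F. Genes called higher in Y665H (4619) are red, genes called lower (3945) are blue, and the points furthest from 0 lie mostly below the line.

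Genes with the largest differences were close to silent in one genotype. Cyp4a12a, a fatty acid hydroxylase of male liver, ran from 0.239 to 30.5 CPM (median 2.79) in the Y665H livers. It was at 0 counts in all 6 Y665F libraries, which makes it at least 520-fold higher in Y665H, taking 3 counts over the group as the floor, or 346-fold without Y665H replicate 2, the highest liver. The fitted log2 difference of 11.95 depends on the prior count and was 11.26 without that liver. WT XX livers lay at 0.181 to 1.25 CPM, all above the Y665F livers and overlapping the low end of the Y665H livers. Sult2a7, a sulfotransferase, ran from 11.2 to 71.7 CPM (median 18.5) in the Y665H livers and from 0 to 0.156 CPM (median 0.0325) in the Y665F livers. Sult2a7 differed by 9.08 (SE 0.65, adjusted p = 7.51e-14) on the log2 scale without overlap, by 8.49 without Y665H replicate 2 and by 10.12 without Y665F replicate 5.

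Hsd3b5, a steroid dehydrogenase of male liver, ran from 1.14 to 34.8 CPM (median 8.57) in the Y665H livers and from 0.0372 to 0.187 CPM (median 0.127) in the Y665F livers. Hsd3b5 differed by 6.66 (SE 0.75, adjusted p = 3.32e-09), or by 6.07 without Y665H replicate 4, with no overlap. Cyp2d9, a male-type steroid hydroxylase, ran from 122 to 574 CPM (median 255) in the Y665H livers and from 4.05 to 9.89 CPM (median 4.98) in the Y665F livers. Cyp2d9 differed by 5.71 (SE 0.39, adjusted p = 3.00e-14), and its WT median of 151 CPM lay inside the Y665H range and far above every Y665F liver. Adgrf1, an adhesion receptor gene, ran from 7.64 to 17.4 CPM (median 12.9) in the Y665H livers and from 0.0902 to 0.523 CPM (median 0.217) in the Y665F livers, and differed by 5.66 (SE 0.36, adjusted p = 2.74e-15). Every Y665F liver held under 1 CPM of it, while WT livers held 16.0 to 20.0 CPM (median 18.2).

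Among the genes far lower in Y665H, 2 cytochrome P450s of female liver stood out by level. Cyp3a16 ran from 0 to 2.70 CPM (median 0.192) in the Y665H livers and from 379 to 557 CPM (median 537) in the Y665F livers. It differed by -9.67 (SE 0.89, adjusted p = 3.69e-11), or by -11.49 without Y665H replicate 3, and WT livers spread from 0.368 to 90.0 CPM, below every Y665F liver and in part within the Y665H range. Cyp3a41a ran from 0.0282 to 5.88 CPM (median 0.219) in the Y665H livers and from 498 to 688 CPM (median 538) in the Y665F livers. Its difference was -8.48 (SE 0.75, adjusted p = 1.21e-11), or -9.65 without Y665H replicate 3, again without overlap and with WT livers in between at 7.58 to 244.1 CPM.

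The other genes at this end were hardly detected outside the Y665F livers. Insrr, an insulin receptor-related kinase, ran from 0 to 0.108 CPM (median 0.0133) in the Y665H livers and from 14.5 to 34.5 CPM (median 22.5) in the Y665F livers. Insrr differed by -9.53 (SE 0.47, adjusted p = 7.52e-18), or by -10.68 without Y665H replicate 6. Its transcripts were plain in every Y665F liver and near the limit of detection in every Y665H liver. Adra2c, an adrenergic receptor, ran from 0 to 0.113 CPM (median 0) in the Y665H livers and from 11.9 to 18.9 CPM (median 12.5) in the Y665F livers, a difference of -8.99 (SE 0.67, adjusted p = 2.15e-13) that became -10.67 without Y665H replicate 3. Hpse2, a heparanase relative, had 0 counts in the 6 Y665H libraries and 1.05 to 3.71 CPM in Y665F livers, at least 139-fold lower in Y665H. Stk33, a kinase gene, had 0 counts in all Y665H and all WT XX libraries and 0.898 to 1.25 CPM in Y665F livers, at least 75.5-fold lower in Y665H. Col22a1, a collagen gene, summed to 3 counts over the Y665H libraries and 726 over the Y665F libraries, a ratio of 287 (95% counting interval 97.9 to 1396, counting error only). In WT XX livers Insrr, Adra2c, Hpse2, Stk33 and Col22a1 all had medians under 0.1 CPM, on the Y665H side.

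**Figure D2:**
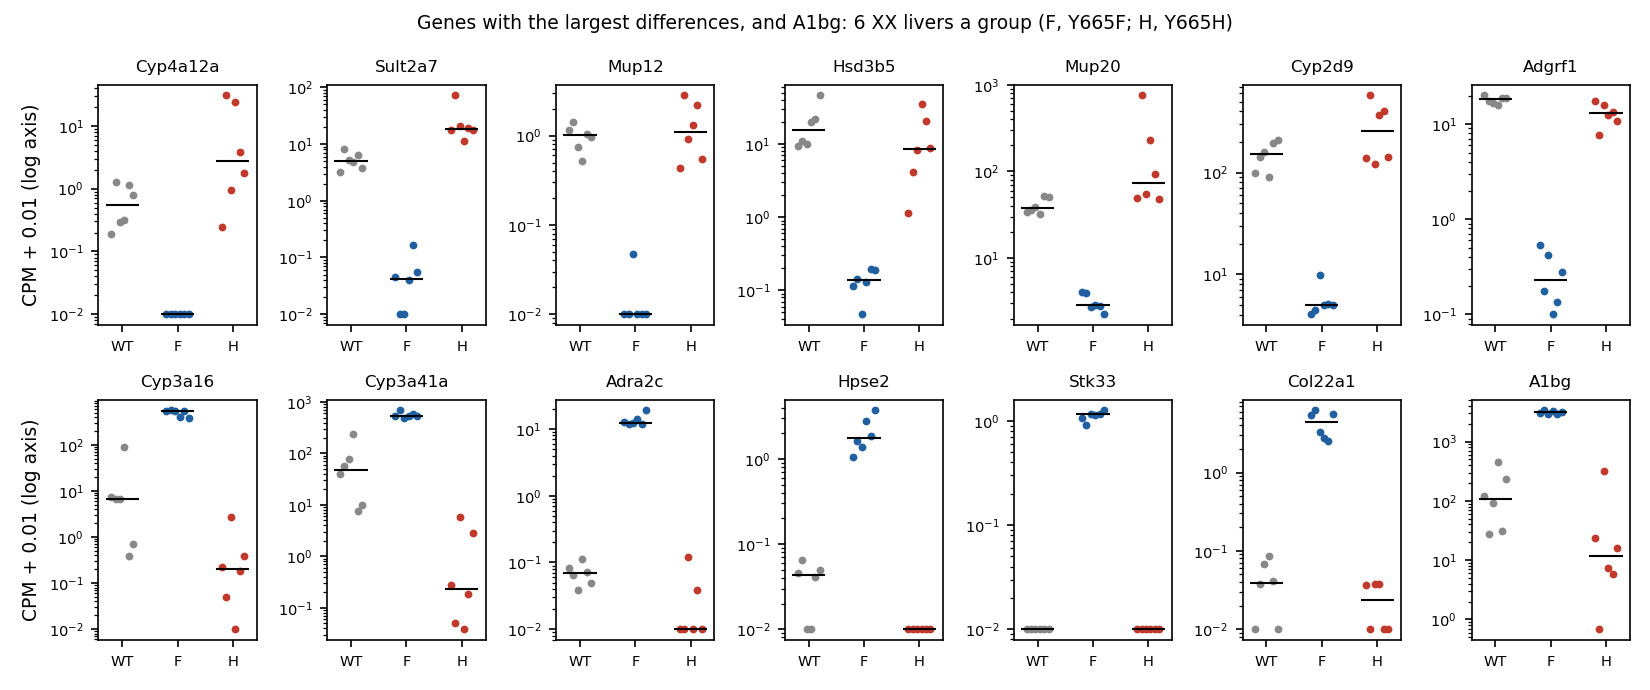
Levels of 14 genes in each of 18 XX livers, as CPM + 0.01 on a log axis; points are livers, bars are group medians, and WT, Y665F (F) and Y665H (H) are set side by side. Top row, genes higher in Y665H, with Cyp4a12a at 0 in all Y665F livers; bottom row, genes lower in Y665H, with Hpse2 and Stk33 at 0 in all Y665H livers.

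In the growth hormone pathway list, 7 of 22 members were called lower in Y665H and 0 higher, against 26.0% and 30.5% of all genes, with a median log2 difference of -0.32 against 0.02 over all genes. The median was -0.19 with the share of reads in no gene as a covariate and -0.21 by total counts. By total counts, 3 members were called higher. The receptors Ghr and Prlr and the repressor Cux2 are described first. Ghr, the growth hormone receptor, ran from 489 to 622 CPM (median 576) in the Y665H livers and from 1863 to 2287 CPM (median 2031) in the Y665F livers. Ghr differed by -1.87 (SE 0.14, adjusted p = 1.27e-13) without overlap, and WT livers, at 457 to 558 CPM (median 535), lay beside the Y665H livers. Prlr, the prolactin receptor, ran from 309.7 to 582 CPM (median 357) in the Y665H livers and from 2149.8 to 2603 CPM (median 2368) in the Y665F livers. Prlr differed by -2.59 (SE 0.19, adjusted p = 1.93e-13), again with every Y665F liver above every Y665H liver and WT livers (352 to 519 CPM (median 458)) low. Cux2, the female-type repressor, ran from 6.31 to 80.8 CPM (median 22.2) in the Y665H livers and from 224 to 276 CPM (median 242) in the Y665F livers. Cux2 differed by -3.01 (SE 0.33, adjusted p = 2.27e-09), and WT livers held a median of 78.1 CPM, so that Y665F livers exceeded all WT livers and 5 of 6 Y665H livers lay below all of them.

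Secreted members and feedback inhibitors made up the rest of the calls. Igfals, the subunit that stabilises circulating IGF1, ran from 130.2 to 188 CPM (median 150.3) in the Y665H livers and from 190.3 to 219.6 CPM (median 210.0) in the Y665F livers. Igfals differed by -0.45 (SE 0.09, adjusted p = 8.32e-05), and here the WT median of 221 CPM was nearer the Y665F level. Igfbp1, an IGF-binding protein, differed by -1.97 (SE 0.44, adjusted p = 2.88e-04), Socs1, a feedback inhibitor, by -1.11 (SE 0.28, adjusted p = 0.00105), and Ptpn1, a phosphatase of JAK2, by -0.35 (SE 0.06, adjusted p = 4.78e-06). The other 15 members were not called. Igf1, the main hormone target, ran from 493 to 646 CPM (median 593) in the Y665H livers and from 459.7 to 777 CPM (median 614) in the Y665F livers, and its difference was -0.06 (SE 0.10, adjusted p = 0.652). The Y665H range lay inside that of Y665F. Socs2 and Cish, feedback inhibitors induced by STAT5, gave -0.70 (SE 0.33, adjusted p = 0.0753) and -0.71 (SE 0.51, adjusted p = 0.241). The Socs2 ranges, 13.9 to 45.8 CPM in Y665H and 50.5 to 76.6 CPM in Y665F, did not overlap although the test did not call it. Over 24 alternatives Socs2 ran from -0.80 to -0.46 and was called in 4, and Cish ran from -0.85 to -0.02 and was called in 3. In edgeR on the 12 libraries alone both were called, Socs2 at -0.74 (adjusted p = 0.0111) and Cish at -0.75 (adjusted p = 0.0177), whereas with the share of reads in no gene as a covariate Cish was at -0.02 (adjusted p = 0.981). Stat5b itself ran from 77.8 to 86.6 CPM (median 82.7) in the Y665H livers and from 76.8 to 99.0 CPM (median 80.8) in the Y665F livers, a difference of -0.06 (SE 0.07, adjusted p = 0.492), and Stat5a gave -0.07 (SE 0.10, adjusted p = 0.548). Bcl6, the male-type repressor, gave 0.48 (SE 0.29, adjusted p = 0.159) and Onecut1, a liver transcription factor, -0.32 (SE 0.41, adjusted p = 0.522).

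The promoters of 4 genes that differed are shown because they carry the STAT5 motif near the start of transcription and stand for both directions. Prlr, Igfals and A1bg were lower in Y665H and Nr0b2 was higher, and they were chosen after their values were seen. Each sequence is the 250 bases before a RefSeq start site on GRCm38.p6, written on the gene's strand with the motif TTCNNNGAA in capitals. The Prlr window, at chr15:10223656-10223905 on the plus strand, lies, like that of Igfals, before 1 of several listed start sites, with the match at position -110. The Igfals window is chr17:24877981-24878230 on the plus strand, with the match at -58. The A1bg window is chr15:60921271-60921520 on the minus strand, with the match at -84. The Nr0b2 window is chr4:133553126-133553375 on the plus strand, with the match at -91.
Prlr: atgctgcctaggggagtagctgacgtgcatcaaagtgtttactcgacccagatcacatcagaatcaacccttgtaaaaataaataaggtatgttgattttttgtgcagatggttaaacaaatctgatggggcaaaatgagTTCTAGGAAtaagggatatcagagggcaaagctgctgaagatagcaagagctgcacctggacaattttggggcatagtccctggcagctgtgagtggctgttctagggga
Igfals: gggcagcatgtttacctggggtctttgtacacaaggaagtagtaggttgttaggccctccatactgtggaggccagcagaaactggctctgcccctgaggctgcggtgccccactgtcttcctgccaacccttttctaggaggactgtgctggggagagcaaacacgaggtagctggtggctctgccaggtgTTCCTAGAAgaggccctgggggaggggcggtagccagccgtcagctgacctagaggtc
A1bg: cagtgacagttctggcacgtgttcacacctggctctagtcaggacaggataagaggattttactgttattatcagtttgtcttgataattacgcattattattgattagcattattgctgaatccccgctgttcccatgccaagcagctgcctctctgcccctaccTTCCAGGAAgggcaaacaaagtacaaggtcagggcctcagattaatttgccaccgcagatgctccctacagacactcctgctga
Nr0b2: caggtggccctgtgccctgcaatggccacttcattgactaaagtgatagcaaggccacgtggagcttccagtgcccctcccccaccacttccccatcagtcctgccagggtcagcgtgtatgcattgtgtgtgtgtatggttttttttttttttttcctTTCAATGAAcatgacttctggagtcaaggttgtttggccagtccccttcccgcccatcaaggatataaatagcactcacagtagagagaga

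Such a match is a description of letters and not a site. The motif, which reads the same on both strands and was counted in the 300-base table windows, stood in 8.30% of all 32851 RefSeq windows and in 8.55% of the 11315 tested genes with a window. It stood in 8.27% of genes called higher in Y665H and in 8.71% of genes called lower. Among called genes with at least a 2-fold difference it stood in 18 of 246 higher (7.32%) and 96 of 946 lower genes (10.1%).

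Male-biased effector genes were mostly higher in the Y665H livers. Of 27 tested, 18 were called higher and 3 lower, against 30.5% and 26.0% of all genes, with a median log2 difference of 2.04, where WT XX livers lay nearer Y665H (median Y665H minus WT 0.20, Y665F minus WT -1.79, both against the same WT livers). In the 12 Y665H and Y665F libraries alone, 21 members passed the filter, 12 were called higher and 3 lower, and the median was 0.70, close to the 0.74 of these 21 in the fit on all libraries. For 16 members, every Y665H liver was above every Y665F liver, and for 1 every Y665H liver was below. Over all 15152 genes tested, every Y665H liver was above every Y665F liver for 13.4% and below for 10.9%. Beside Cyp2d9, Cyp4a12a and Hsd3b5, Elovl3, a fatty acid elongase, ran from 4.28 to 8.78 CPM (median 5.97) in the Y665H livers and from 0.0744 to 0.532 CPM (median 0.320) in the Y665F livers. Elovl3 differed by 4.26 (SE 0.35, adjusted p = 2.01e-12), with WT livers at 5.39 to 8.18 CPM (median 6.14). C8b, a complement component, ran from 125 to 270.1 CPM (median 212) in the Y665H livers and from 17.7 to 32.6 CPM (median 20.6) in the Y665F livers, and differed by 3.07 (SE 0.24, adjusted p = 4.53e-13). Nudt7, a peroxisomal hydrolase of coenzyme A, ran from 206 to 356 CPM (median 303) in the Y665H livers and from 28.6 to 41.4 CPM (median 37.2) in the Y665F livers, and differed by 3.00 (SE 0.13, adjusted p = 2.61e-19). Slco1a1, an organic anion uptake carrier, ran from 80.2 to 323 CPM (median 213) in the Y665H livers and from 22.0 to 78.2 CPM (median 25.4) in the Y665F livers, and differed by 2.40 (SE 0.39, adjusted p = 3.75e-06), the narrowest gap of these 4. Of the members called lower in Y665H, C4a, a complement gene, differed by -0.98 (SE 0.27, adjusted p = 0.00259). The C4a call was lost in limma-voom with quality weights (-1.01, adjusted p = 0.0672) and in edgeR with the share of reads in no gene as a covariate (-0.73, adjusted p = 0.0618). Gstp1, a glutathione transferase, differed by -0.59 (SE 0.15, adjusted p = 8.43e-04). Serpina1e, a protease inhibitor, differed by -1.40 (SE 0.61, adjusted p = 0.048), and this call was lost in 9 of the 12 fits without 1 library. Cyp7b1, an oxysterol hydroxylase, was not called, at -0.27 (SE 0.22, adjusted p = 0.298).

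Major urinary proteins, pheromone carriers that male liver secretes in bulk, belong to this group. Of 13 tested, 9 were called higher in Y665H, 0 lower, and each of the 9 was without overlap, against the 13.4% of all genes with every Y665H liver higher. Mup20, the most abundant after Mup3, ran from 47.4 to 754 CPM (median 73.8) in the Y665H livers and from 2.23 to 4.08 CPM (median 2.83) in the Y665F livers. Mup20 differed by 6.04 (SE 0.53, adjusted p = 1.36e-11), or by 4.94 without Y665H replicate 2, the library at the top of that range. Mup3 ran from 1422 to 3127 CPM (median 2807) in the Y665H livers and from 363 to 746 CPM (median 637) in the Y665F livers, and differed by 2.04 (SE 0.17, adjusted p = 1.69e-12). Mup12 summed to 1 count in the Y665F libraries and 262 in the Y665H libraries, a ratio of 221 (95% counting interval 39.3 to 8754, counting error only). Mup7 gave 5.61 (SE 1.02, adjusted p = 1.88e-05). These genes are near-identical copies, and reads that fit several places made up 19.5% to 28.9% of counted items in Y665H and 19.0% to 22.1% in Y665F libraries, so the split among copies is uncertain. Only 4 of them remained in the tests where the filter was set on the 12 libraries or at a mean of 1 CPM, and 3 were called.

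Female-biased effectors were called in both directions. Of 31 tested, 13 were called lower in Y665H and 6 higher, against 26.0% and 30.5% of all genes, with a median log2 difference of -0.21 that ran from -0.47 to -0.09 over the alternatives. Without 1 library, the median was -0.46 without Y665H replicate 3, -0.35 without Y665H replicate 1, -0.13 without Y665H replicate 4 and -0.14 without Y665F replicate 2. A1bg, a secreted glycoprotein of female liver, ran from 0.673 to 323 CPM (median 11.7) in the Y665H livers and from 2878 to 3357 CPM (median 3112) in the Y665F livers. A1bg differed by -5.63 (SE 0.85, adjusted p = 8.90e-07), or by -8.17 without Y665H replicate 3, and WT livers, at 28.0 to 449 CPM (median 107), were also far below the Y665F livers. Cyp2a4, a steroid hydroxylase, ran from 20.4 to 519.9 CPM (median 313) in the Y665H livers and from 1730.4 to 2331 CPM (median 2077) in the Y665F livers, and differed by -2.79 (SE 0.40, adjusted p = 4.13e-07). Cyp3a44 ran from 0.712 to 51.3 CPM (median 8.50) in the Y665H livers and from 472 to 676 CPM (median 569.6) in the Y665F livers, and differed by -5.31 (SE 0.60, adjusted p = 4.06e-09), or by -6.35 without Y665H replicate 3. For these 3 genes the lowest Y665F liver stood above the highest Y665H liver.

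The 6 members called higher in Y665H included Cyp2b13, a further P450 of female liver, which ran from 83.8 to 570.2 CPM (median 305) in the Y665H livers and from 6.52 to 21.8 CPM (median 10.1) in the Y665F livers. Cyp2b13 differed by 4.76 (SE 0.41, adjusted p = 7.14e-12), and WT livers lay with the Y665H livers at 233 to 495 CPM (median 335). Ntrk2, a neurotrophin receptor, differed by 2.30 (SE 0.53, adjusted p = 3.93e-04), and Vldlr, a lipoprotein receptor, by 1.67 (SE 0.30, adjusted p = 2.00e-05). Cyp2b9 ran from 405 to 758 CPM (median 714) in the Y665H livers and from 377 to 472 CPM (median 422) in the Y665F livers, and was not called, at 0.60 (SE 0.38, adjusted p = 0.176), but was in 3 of 24 alternatives, which ran from 0.53 to 0.76, among them edgeR on the 12 libraries alone (0.56, adjusted p = 0.00428). Sult1e1, Acot3 and Hao2 were among the other 11 not called.

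Cytochrome P450 families are given by family. All 10 called members of the Cyp2c list, of 13 tested, were higher in Y665H without overlap, again against 13.4% of all genes, with a median log2 difference of 1.22 over the list. Cyp2c50, an arachidonate-metabolising enzyme, ran from 893 to 1244 CPM (median 1024) in the Y665H livers and from 74.7 to 189.5 CPM (median 135) in the Y665F livers. Cyp2c50 differed by 3.03 (SE 0.16, adjusted p = 4.99e-17), with WT livers at 757 to 1016 CPM (median 900.3). The Y665H level of this enzyme was close to the WT level. Cyp2c38 ran from 65.7 to 90.9 CPM (median 86.5) in the Y665H livers and from 1.33 to 5.92 CPM (median 4.59) in the Y665F livers, and differed by 4.24 (SE 0.37, adjusted p = 1.04e-11). Cyp2c29 differed by 1.22 (SE 0.11, adjusted p = 4.45e-11) and Cyp2c44 by 0.50 (SE 0.10, adjusted p = 5.94e-05). In the Cyp3a list of 9 tested, 4 were called lower (Cyp3a16, Cyp3a41a, Cyp3a44 and Cyp3a57) and 3 higher, against 26.0% and 30.5% of all genes. Cyp3a11, the main xenobiotic-metabolising form, ran from 2877 to 4338 CPM (median 3570.3) in the Y665H livers and from 84.7 to 571 CPM (median 260.4) in the Y665F livers. Cyp3a11 differed by 3.55 (SE 0.29, adjusted p = 2.08e-12), against the female-type forms of its own cluster. The other members called higher, Cyp3a13 at 0.30 and Cyp3a25 at 0.38, lost their calls without Y665H replicate 2, which left 1.

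In the Cyp4 list, 9 of 11 were called higher and 1 lower. Cyp4a14, a fatty acid omega-hydroxylase induced by PPAR alpha, ran from 791 to 1212 CPM (median 927) in the Y665H livers and from 5.14 to 60.6 CPM (median 15.3) in the Y665F livers. Cyp4a14 differed by 5.40 (SE 0.63, adjusted p = 6.52e-09), and Cyp4a10, its neighbour in function, by 1.68 (SE 0.30, adjusted p = 1.71e-05). Cyp4a31 was the member called lower, at -1.32 (SE 0.26, adjusted p = 4.39e-05). Among the 8 Cyp2a and Cyp2b list members tested, Cyp2a22 ran from 28.6 to 136 CPM (median 79.6) in the Y665H livers and from 3.19 to 34.1 CPM (median 4.28) in the Y665F livers. Cyp2a22 differed by 2.55 (SE 0.66, adjusted p = 0.0014) with overlapping groups, and WT livers, at 3.90 to 5.96 CPM (median 4.78), lay on the Y665F side.

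Sulfotransferases, which conjugate sulfate to steroids and bile acids, were mostly lower in Y665H: 10 of 16 were called lower and 3 higher, with a median of -1.08, or -0.60 over the 12 with a mean of at least 1 CPM. Sult2a1, the bile acid and dehydroepiandrosterone sulfotransferase, ran from 0.141 to 24.4 CPM (median 4.29) in the Y665H livers and from 246 to 391.6 CPM (median 330.4) in the Y665F livers. Sult2a1 differed by -5.52 (SE 0.65, adjusted p = 8.11e-09), or by -6.49 without Y665H replicate 1, and WT livers held 0.236 to 24.6 CPM (median 10.7). Sult3a1 ran from 5.34 to 77.1 CPM (median 30.2) in the Y665H livers and from 97.0 to 222 CPM (median 159.7) in the Y665F livers, and differed by -2.15 (SE 0.40, adjusted p = 2.99e-05). Sult5a1 differed by -1.52 (SE 0.35, adjusted p = 3.52e-04) and Papss2, which makes the sulfate donor, by -0.40 (SE 0.11, adjusted p = 0.00162). The family was not uniform. Higher in Y665H, beside Sult2a7, were Sult1d1 at 1.03 (SE 0.16, adjusted p = 1.02e-06) and Sult2a8, a bile acid sulfotransferase, at 0.70 (SE 0.13, adjusted p = 3.31e-05). The Sult2a genes are close copies, so their separate values are uncertain.

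Glucuronosyltransferases ran the other way, with 12 of 17 called higher and 2 lower and a median of 0.61. Ugt1a6b differed by 1.47 (SE 0.09, adjusted p = 4.22e-15), and Ugt3a1, a glycosyltransferase of the same superfamily, by 1.56 (SE 0.14, adjusted p = 2.00e-11). Ugdh, which supplies glucuronic acid, ran from 117 to 172 CPM (median 147) in the Y665H livers and from 46.9 to 95.9 CPM (median 68.0) in the Y665F livers, and differed by 1.09 (SE 0.13, adjusted p = 2.14e-08). Ugt1a5 was lower in Y665H, at -1.22 (SE 0.22, adjusted p = 1.22e-05). Glutathione transferases gave 12 of 21 called higher and 4 lower, with a median of 0.43, or 0.24 without Y665H replicate 2. Gstt1 ran from 227 to 286 CPM (median 259.5) in the Y665H livers and from 99.4 to 123 CPM (median 108) in the Y665F livers, and differed by 1.24 (SE 0.07, adjusted p = 4.88e-16), a wide separation of the groups beside their spread. Gstk1 differed by 0.89 (SE 0.08, adjusted p = 8.17e-11) and the microsomal Mgst1 by 0.89 (SE 0.09, adjusted p = 1.81e-10). Gstp2 was lower in Y665H, at -1.29 (SE 0.27, adjusted p = 1.39e-04), as was Gstm2, at -0.58 (SE 0.14, adjusted p = 8.46e-04).

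**Figure D3:**
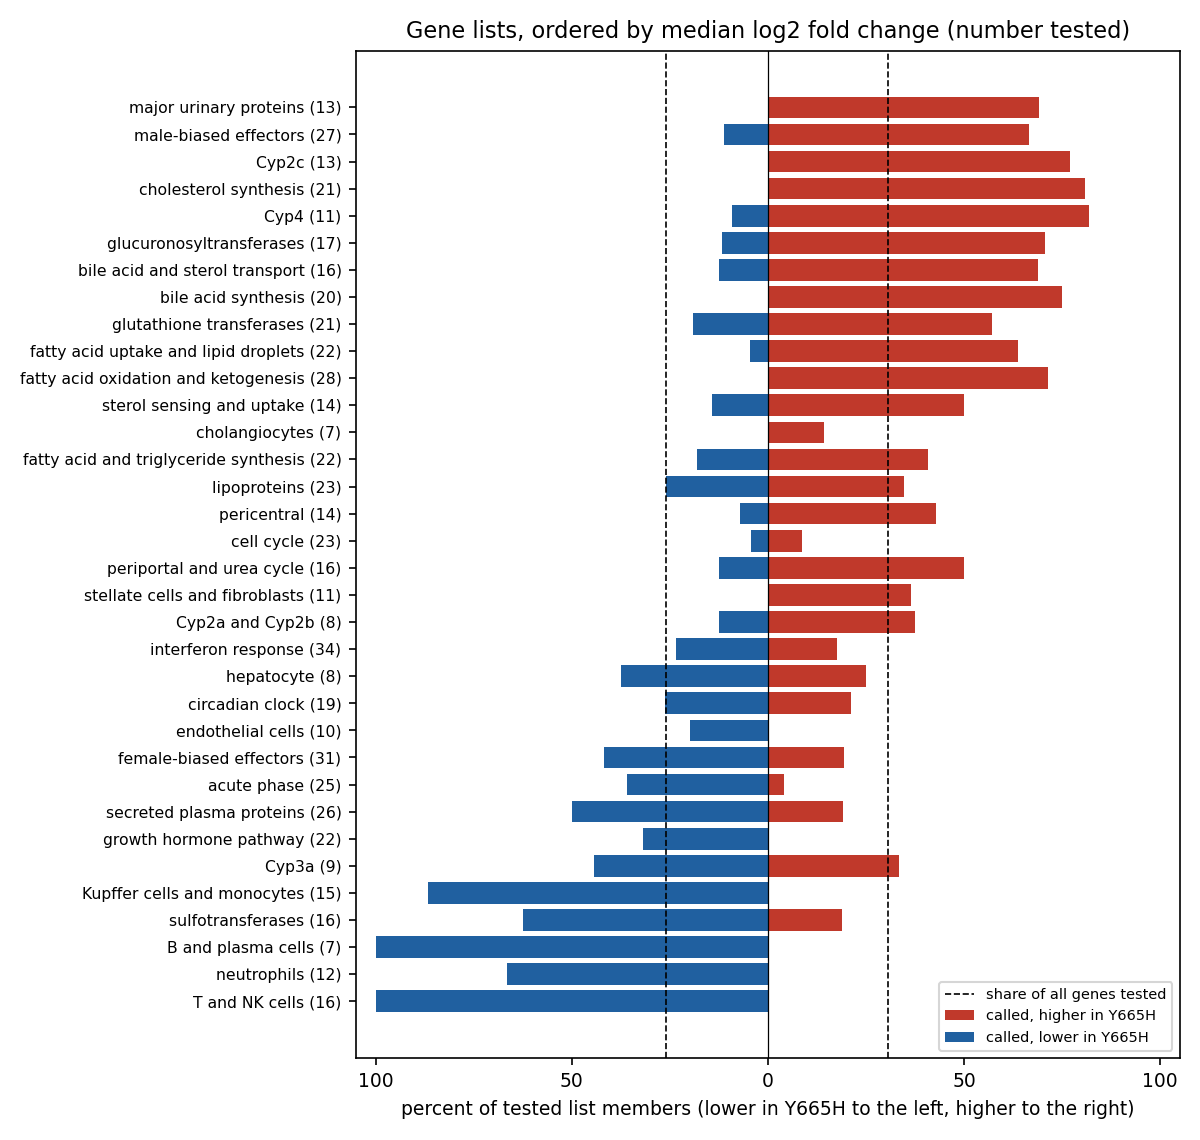
For 34 gene lists with at least 7 tested members, bars give the percent of tested members called higher in Y665H (right, red) and called lower (left, blue), ordered by median log2 difference with the number tested in parentheses. Dashed lines mark the share over all genes tested, 30.5% higher and 26.0% lower; T and NK cell and B cell markers reach 100% on the lower side.

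Genes of cholesterol synthesis were higher in Y665H, although no member separated the groups completely. Of 21 tested, 17 were called higher and 0 lower, with a median of 0.78. WT XX livers lay slightly above Y665H (median Y665H minus WT -0.19) and well above Y665F (-0.84). Sqle, the squalene epoxidase, ran from 66.8 to 183 CPM (median 111) in the Y665H livers and from 35.1 to 119.9 CPM (median 53.1) in the Y665F livers. Sqle differed by 1.02 (SE 0.30, adjusted p = 0.00447), with overlapping groups and a WT range of 51.4 to 241 CPM (median 207). Idi1, an isopentenyl isomerase, ran from 41.6 to 149 CPM (median 84.7) in the Y665H livers and from 26.7 to 72.7 CPM (median 31.8) in the Y665F livers, and differed by 1.22 (SE 0.29, adjusted p = 5.07e-04). Y665F replicate 2 was the highest Y665F liver for Sqle and Idi1. Cyp51, the lanosterol demethylase, gave 1.09 (SE 0.23, adjusted p = 1.74e-04), Msmo1, a methylsterol oxidase, 1.10 (SE 0.24, adjusted p = 2.69e-04), and Dhcr7, which acts at the end of the pathway, 0.91 (SE 0.21, adjusted p = 5.04e-04). Pmvk, Mvd, Fdft1 and Nsdhl were not called.

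Part of the sensing side was also higher in Y665H. Srebf2, the transcription factor that drives the pathway, ran from 85.0 to 135 CPM (median 112) in the Y665H livers and from 70.0 to 96.4 CPM (median 74.3) in the Y665F livers. Srebf2 differed by 0.55 (SE 0.11, adjusted p = 9.49e-05). Insig1 and Insig2, which hold the SREBPs in the endoplasmic reticulum, differed by 0.84 (SE 0.17, adjusted p = 8.54e-05) and 0.97 (SE 0.18, adjusted p = 1.95e-05), and for Insig2 the groups did not overlap. Npc1, a lysosomal cholesterol exporter, gave 0.41 (SE 0.09, adjusted p = 1.42e-04) and Stard4, a sterol carrier, 0.56 (SE 0.12, adjusted p = 1.96e-04). Of the 14 members tested, 7 were called higher and 2, Scap and Nr1h2, lower by under 0.2 on the log2 scale, and both of these lost their calls in fits without 1 library.

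In bile acid synthesis, 15 of 20 members were called higher in Y665H and 0 lower, with a median of 0.44. Not called were Cyp7a1, the rate-limiting 7-alpha-hydroxylase, at -0.31 (SE 0.34, adjusted p = 0.445) and Cyp8b1, which sets cholic acid production, at -0.13 (SE 0.25, adjusted p = 0.672). Cyp7b1, Cyp2c70 and Akr1d1 were not called either, while Cyp27a1 was among those called higher. Cyp39a1, a hydroxylase of the 24-hydroxycholesterol branch, ran from 25.3 to 71.2 CPM (median 31.7) in the Y665H livers and from 5.65 to 9.84 CPM (median 6.92) in the Y665F livers. Cyp39a1 differed by 2.32 (SE 0.19, adjusted p = 2.20e-12), with WT livers at 27.7 to 38.1 CPM (median 31.9). Scp2, the peroxisomal thiolase that shortens the side chain, ran from 1547 to 2822 CPM (median 1697) in the Y665H livers and from 794 to 901 CPM (median 879.8) in the Y665F livers, and differed by 1.16 (SE 0.10, adjusted p = 1.34e-11). The groups did not overlap for either enzyme. Nr1h4, the bile acid receptor FXR, ran from 153 to 159 CPM (median 156) in the Y665H livers and from 70.8 to 94.1 CPM (median 79.2) in the Y665F livers. Nr1h4 differed by 0.95 (SE 0.08, adjusted p = 3.56e-12), and the 6 Y665H livers lay within a few CPM of each other. Nr0b2, the FXR target SHP, whose promoter is shown above, ran from 26.2 to 42.6 CPM (median 35.7) in the Y665H livers and from 8.57 to 19.3 CPM (median 11.0) in the Y665F livers, and differed by 1.54 (SE 0.29, adjusted p = 3.01e-05). Baat and Acox2 differed by 0.75 (SE 0.07, adjusted p = 2.04e-10) and 0.76 (SE 0.09, adjusted p = 5.48e-09).

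Bile acid and sterol carriers gave 11 of 16 called higher and 2 lower, with a median of 0.47. Abcc3, a basolateral exporter, ran from 612 to 832 CPM (median 763) in the Y665H livers and from 111 to 303 CPM (median 169) in the Y665F livers. Abcc3 differed by 1.95 (SE 0.17, adjusted p = 9.67e-12), with WT livers at 621 to 764 CPM (median 718). Slc10a1 (NTCP), the sodium-dependent uptake carrier, ran from 598 to 784 CPM (median 723) in the Y665H livers and from 263 to 423 CPM (median 293) in the Y665F livers, and differed by 1.21 (SE 0.09, adjusted p = 1.21e-13). Neither carrier overlapped between the groups. Slco1b2, an organic anion uptake carrier, differed by 1.29 (SE 0.09, adjusted p = 1.50e-13). Abcb11, the bile salt export pump, ran from 503 to 736 CPM (median 613) in the Y665H livers and from 355 to 482 CPM (median 424) in the Y665F livers, and differed by 0.54 (SE 0.09, adjusted p = 1.02e-05). Abcb4, which exports phospholipid, differed by 0.63 (SE 0.09, adjusted p = 8.13e-07), and Abcg5, a sterol exporter, by 0.43 (SE 0.10, adjusted p = 4.35e-04). Abcc4, an alternative basolateral exporter, went the other way: it ran from 4.08 to 9.74 CPM (median 5.45) in the Y665H livers and from 15.5 to 23.6 CPM (median 19.7) in the Y665F livers, a difference of -1.68 (SE 0.17, adjusted p = 3.00e-10).

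Lipoprotein genes were split, with 8 of 23 called higher, 6 lower and a median of 0.32, shares near the 30.5% and 26.0% of all genes. The median was 0.10 with the share of reads in no gene as a covariate, 0.19 without Y665H replicate 2 and 0.16 without Y665H replicate 4 or 5. The vascular lipases of liver were the clearest. Lipc, hepatic lipase, ran from 151 to 190.2 CPM (median 164) in the Y665H livers and from 35.4 to 50.2 CPM (median 47.5) in the Y665F livers. Lipc differed by 1.897 (SE 0.09, adjusted p = 7.31e-19), with WT livers at 146 to 192 CPM (median 183), level with Y665H. Lipg, endothelial lipase, ran from 36.7 to 52.8 CPM (median 47.6) in the Y665H livers and from 4.74 to 15.8 CPM (median 9.10) in the Y665F livers, and differed by 2.31 (SE 0.17, adjusted p = 3.02e-13). Lpl, the lipase of muscle and fat, was lower, at -0.79 (SE 0.15, adjusted p = 4.64e-05). Lipc and Lipg were thus opposite in sign to Lpl. Apoa4, a lipoprotein component, ran from 66.0 to 149 CPM (median 104) in the Y665H livers and from 258 to 388 CPM (median 316) in the Y665F livers, and differed by -1.57 (SE 0.17, adjusted p = 1.28e-09). Mttp, which loads lipid onto apolipoprotein B, ran from 330.4 to 448 CPM (median 416) in the Y665H livers and from 287 to 330.1 CPM (median 298) in the Y665F livers, and differed by 0.42 (SE 0.06, adjusted p = 1.21e-06). Apoa5, a component of triglyceride-rich particles, gave 0.65 (SE 0.10, adjusted p = 2.40e-06) and Lrp1, a remnant receptor, -0.55 (SE 0.06, adjusted p = 2.89e-09). Apoa1, Apob, Apoc3 and Apoe were not called.

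In fatty acid and triglyceride synthesis, 9 of 22 were called higher and 4 lower, against 30.5% and 26.0% of all genes, with a median of 0.32, or 0.21 without Y665H replicate 4. Scd1, the delta-9 desaturase, ran from 2302 to 10368 CPM (median 3916) in the Y665H livers and from 205 to 872 CPM (median 526) in the Y665F livers. Scd1 differed by 3.48 (SE 0.38, adjusted p = 1.94e-09), and its WT range, 2953 to 5907 CPM (median 3600.2), lay inside that of Y665H. Elovl6, which elongates palmitate, ran from 79.7 to 247 CPM (median 146) in the Y665H livers and from 32.5 to 82.5 CPM (median 46.8) in the Y665F livers, and differed by 1.49 (SE 0.27, adjusted p = 1.90e-05) with slight overlap. Me1, the malic enzyme that supplies NADPH, differed by 1.43 (SE 0.20, adjusted p = 3.87e-07), Acly, which makes cytosolic acetyl-CoA, by 0.90 (SE 0.24, adjusted p = 0.00171), and Acaca, acetyl-CoA carboxylase, by 0.73 (SE 0.16, adjusted p = 2.66e-04). Fasn, fatty acid synthase, ran from 563 to 2407 CPM (median 1012) in the Y665H livers and from 467 to 762 CPM (median 638) in the Y665F livers. Fasn differed by 0.92 (SE 0.31, adjusted p = 0.0118), which was 0.58 (adjusted p = 0.0904) without Y665H replicate 1. Pnpla3, a lipid droplet protein, was lower in Y665H: it ran from 0.277 to 4.43 CPM (median 1.03) in the Y665H livers and from 8.58 to 21.3 CPM (median 13.7) in the Y665F livers, a difference of -3.27 (SE 0.52, adjusted p = 2.48e-06), or -4.04 without Y665H replicate 1. The desaturase Fads1 ran from 658 to 962 CPM (median 841) in the Y665H livers and from 1405 to 1786 CPM (median 1675) in the Y665F livers, and differed by -1.003 (SE 0.11, adjusted p = 1.89e-09), opposite in sign to Scd1. Srebf1, the lipogenic transcription factor, was not called, at -0.09 (SE 0.18, adjusted p = 0.709).

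Fatty acid oxidation and ketogenesis gave 20 of 28 called higher and 0 lower, with a median of 0.38. With the share of reads in no gene as a covariate, 13 of 28 were called higher and the median was 0.22. Acaa1b, a peroxisomal thiolase, ran from 1057 to 1575 CPM (median 1169) in the Y665H livers and from 334 to 579 CPM (median 481) in the Y665F livers, and differed by 1.42 (SE 0.19, adjusted p = 6.23e-08). Ehhadh, its partner in peroxisomal oxidation, differed by 0.89 (SE 0.14, adjusted p = 1.97e-06). In mitochondria, Acadm, the medium-chain dehydrogenase, ran from 262 to 367 CPM (median 315) in the Y665H livers and from 176 to 204 CPM (median 182) in the Y665F livers, and differed by 0.74 (SE 0.09, adjusted p = 4.91e-09). Cpt1a, the gate of mitochondrial entry, gave 0.31 (SE 0.13, adjusted p = 0.036) and lost its call in 7 of the 12 fits without 1 library. Ppara and Ppargc1a, regulators of the pathway, were not called.

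For fatty acid uptake and lipid droplets, 14 of 22 were called higher and 1 lower, with a median of 0.42. The count was 9 without Y665H replicate 4 and 8, with a median of 0.18, with the share of reads in no gene as a covariate. Pparg, the adipogenic receptor, ran from 11.6 to 19.1 CPM (median 13.6) in the Y665H livers and from 4.38 to 8.95 CPM (median 6.97) in the Y665F livers, and differed by 1.06 (SE 0.18, adjusted p = 4.72e-06). Mogat1, a monoacylglycerol acyltransferase, ran from 0.402 to 0.760 CPM (median 0.615) in the Y665H livers and from 0.0447 to 0.210 CPM (median 0.161) in the Y665F livers, and differed by 2.00 (SE 0.45, adjusted p = 3.17e-04). Slc27a2, a very long chain acyl-CoA synthetase, differed by 0.63 (SE 0.08, adjusted p = 4.25e-08), and Fabp1, the liver fatty acid binding protein, by 0.61 (SE 0.14, adjusted p = 2.76e-04). Cd36, a fatty acid translocase, was not called, at -0.34 (SE 0.25, adjusted p = 0.255), nor was Plin2, the main droplet coat, at 0.33 (SE 0.16, adjusted p = 0.0764). Cd36 had medians of 89.2 CPM in Y665H and 114 CPM in Y665F against 43.3 CPM in WT.

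**Figure D4:**
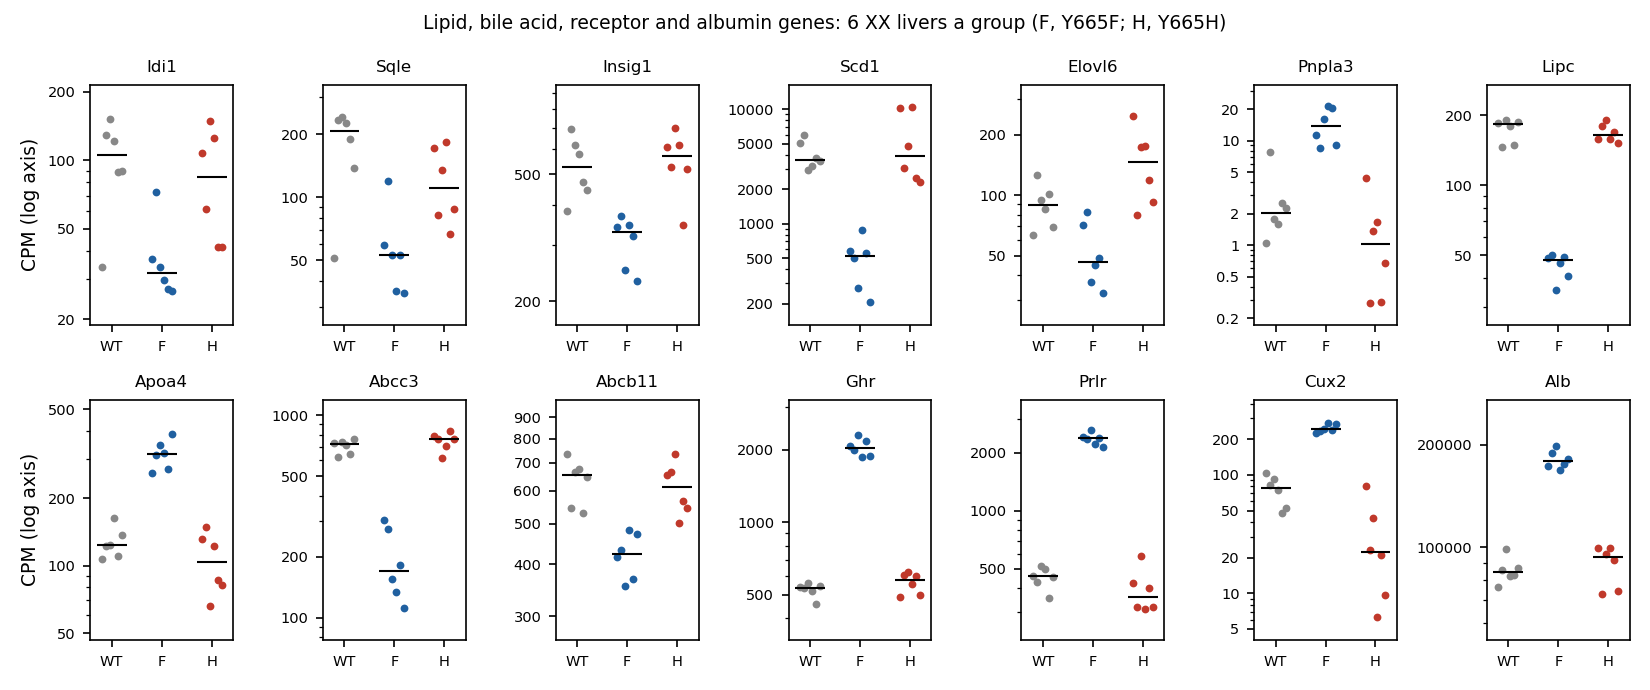
Levels of 14 genes of lipid and bile acid handling, receptors and albumin in each of 18 XX livers, in CPM on a log axis; points are livers and bars are group medians of WT, Y665F (F) and Y665H (H). Lipc, Apoa4, Abcc3, Ghr, Prlr, Cux2 and Alb separate Y665F from Y665H without overlap, while Idi1, Sqle and Insig1 overlap.

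Secreted plasma proteins were more often lower than higher in Y665H, with 13 of 26 called lower and 5 higher, against 26.0% and 30.5% of all genes, and a median of -0.24, or -0.14 by total counts. Alb, albumin and the most abundant RNA, ran from 73029 to 99536 CPM (median 93457) in the Y665H livers and from 168831 to 198539 CPM (median 178575) in the Y665F livers. Alb differed by -1.03 (SE 0.10, adjusted p = 1.02e-10), with WT livers at 76694 to 98740.1 CPM (median 84429.8). Trf, transferrin, ran from 14558 to 20634 CPM (median 17888) in the Y665H livers and from 28605 to 33493 CPM (median 30414) in the Y665F livers, and differed by -0.77 (SE 0.07, adjusted p = 6.03e-11). F2, prothrombin, gave -0.57 (SE 0.06, adjusted p = 3.75e-10). For all 3, every Y665F liver lay above every Y665H liver. Ttr, the thyroxine and retinol carrier, went the other way: it ran from 4153 to 6383 CPM (median 4843) in the Y665H livers and from 1745 to 2342 CPM (median 1911) in the Y665F livers, a difference of 1.37 (SE 0.09, adjusted p = 1.52e-14). Serpina3k, a kallikrein inhibitor, was also higher, at 1.21 (SE 0.20, adjusted p = 5.73e-06). Of 25 acute phase genes, 9 were called lower and 1 higher, against 26.0% and 30.5% of all genes. Their median of -0.23 was -0.07 with the share of reads in no gene as a covariate and -0.13 by total counts. Cp, the copper oxidase ceruloplasmin, ran from 699.7 to 1056 CPM (median 899) in the Y665H livers and from 3154 to 4464 CPM (median 3774) in the Y665F livers, and differed by -2.10 (SE 0.11, adjusted p = 1.64e-17). Itih4 differed by -1.59 (SE 0.11, adjusted p = 2.47e-14), and the metallothioneins Mt1 and Mt2 by -1.91 (SE 0.29, adjusted p = 9.32e-07) and -2.07 (SE 0.38, adjusted p = 2.45e-05). Of the serum amyloids, Saa2 gave -1.89 (SE 0.95, adjusted p = 0.0882) and was not called, but its value ran from -2.16 to -0.43 over 24 alternatives and 4 of these called it, among them edgeR on the 12 libraries alone (-1.93, adjusted p = 0.00101). Saa1, Saa3, Hp and the fibrinogens were not called. Saa4 was the member called higher, at 0.73 (SE 0.16, adjusted p = 1.96e-04).

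Zonation genes were described by zone, against the 30.5% of all genes called higher and 26.0% called lower. Of 16 periportal and urea cycle genes, 8 were called higher and 2 lower, with a median of 0.17, which was 0.02 with the share of reads in no gene as a covariate, 0.28 by total counts, 0.11 without Y665H replicate 2 and 0.11 without Y665F replicate 3. Of 14 pericentral genes, 6 were called higher and 1 lower, with a median of 0.27, or 0.17 with that covariate. Cyp2f2, a periportal P450, differed by 1.13 (SE 0.13, adjusted p = 7.38e-09), Hsd17b13, a lipid droplet dehydrogenase, by 1.76 (SE 0.10, adjusted p = 1.08e-16), and Cyp2e1, a pericentral P450, by 0.97 (SE 0.13, adjusted p = 1.51e-07). Glul, the glutamine synthetase of the innermost pericentral cells, ran from 1541 to 1891 CPM (median 1749.5) in the Y665H livers and from 1281 to 2249 CPM (median 1661) in the Y665F livers, and was not called at 0.02 (SE 0.10, adjusted p = 0.85). Slc1a2, a glutamate transporter of the same cells, was lower: it ran from 419 to 671 CPM (median 485) in the Y665H livers and from 1382 to 1989 CPM (median 1612) in the Y665F livers, a difference of -1.65 (SE 0.13, adjusted p = 1.22e-12). Tat, a gluconeogenic transaminase, was also lower, at -1.59 (SE 0.22, adjusted p = 1.62e-07), as was Cdh1, at -0.44 (SE 0.12, adjusted p = 0.00275).

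Of 19 clock genes, 5 were called lower and 4 higher, against the 26.0% and 30.5% of all genes. Their median of -0.09 turned positive (0.02) by total counts. Without 1 library it ran from -0.01 (without Y665H replicate 4) to -0.15 (without Y665H replicate 6 or Y665F replicate 6), and was -0.05 without Y665F replicate 3 or Y665H replicate 3. Bhlhe41 differed by -1.70 (SE 0.34, adjusted p = 7.98e-05), Per3 by -0.94 (SE 0.26, adjusted p = 0.00272) and Clock by 0.50 (SE 0.10, adjusted p = 1.01e-04). The core members Arntl, Nr1d1 and Dbp were not called. Without Y665F replicate 6, 2 members were called higher. Of 34 interferon response genes, 8 were called lower and 6 higher, against 26.0% and 30.5% of all genes, with a median of -0.04 that changed sign in 5 alternatives, total counts among them (0.07). Oas2 differed by -1.13 (SE 0.20, adjusted p = 1.15e-05), Zbp1 by -1.01 (SE 0.19, adjusted p = 3.64e-05) and Usp18, a brake on the pathway, by 0.95 (SE 0.18, adjusted p = 3.73e-05). By total counts, 11 interferon response members were called higher and 7 lower. With the share of reads in no gene as a covariate, 3 were called higher. Without Y665H replicate 3, 3 members were called higher, and Ifit1, at 0.46 (SE 0.19, adjusted p = 0.0358), was not (0.31, adjusted p = 0.156).

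Markers of immune cells were lower in the Y665H livers. In bulk tissue fewer cells of a type and less RNA per cell cannot be told apart, which holds for all of these lists. All 16 T and NK cell markers tested were called lower, with a median log2 difference of -2.01. Their summed level ran from 4.79 to 9.18 CPM (median 7.20) in Y665H and from 24.1 to 32.3 CPM (median 28.4) in Y665F, with WT livers at 10.1 to 14.6 CPM, between the mutants. Gzmb, a cytotoxic protease, ran from 0.113 to 0.372 CPM (median 0.141) in the Y665H livers and from 1.92 to 2.96 CPM (median 2.36) in the Y665F livers, and differed by -3.67 (SE 0.26, adjusted p = 9.42e-14). Cd8a, of cytotoxic T cells, differed by -2.81 (SE 0.29, adjusted p = 3.75e-10), and Cd3e, of all T cells, by -1.58 (SE 0.20, adjusted p = 4.37e-08). Il2rb, an interleukin receptor chain whose signal passes through STAT5, ran from 1.31 to 2.10 CPM (median 1.67) in the Y665H livers and from 6.01 to 7.71 CPM (median 6.84) in the Y665F livers, and differed by -2.02 (SE 0.17, adjusted p = 6.56e-12). All 7 B and plasma cell markers tested were called lower, and their sum ran from 3.72 to 11.3 CPM in Y665H and from 13.0 to 26.3 CPM in Y665F. WT livers, at 6.23 to 10.1 CPM, lay inside the Y665H range of that sum. The median log2 difference from WT over these markers was -0.33 in Y665H and 1.12 in Y665F. Pax5, a B cell transcription factor, differed by -2.60 (SE 0.34, adjusted p = 5.50e-08).

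For Kupffer cells and monocytes, 13 of 15 markers were called lower and 0 higher, with a median of -0.54, and the summed ranges overlapped (268 to 687 CPM in Y665H, 629 to 827 CPM in Y665F). The count was 7 without Y665H replicate 2, 8 without Y665H replicate 6, 8 without Y665F replicate 6, 7 without both of those Y665H livers, with a median of -0.33, and 7 by total counts. Ccr2, a monocyte receptor, ran from 0.593 to 1.22 CPM (median 1.01) in the Y665H livers and from 1.74 to 3.03 CPM (median 2.55) in the Y665F livers, and differed by -1.37 (SE 0.18, adjusted p = 9.46e-08). Clec4f, the defining Kupffer cell lectin, ran from 59.1 to 158 CPM (median 101) in the Y665H livers and from 134 to 176 CPM (median 141) in the Y665F livers, and differed by -0.43 (SE 0.17, adjusted p = 0.031), a call lost in 5 of the 12 fits without 1 library. Of 12 neutrophil markers, 8 were called lower, or 4 without Y665F replicate 2 and 5 with the share of reads in no gene as a covariate. Their sums were 2.33 to 4.01 CPM in Y665H and 5.06 to 12.9 CPM in Y665F, and WT livers, at 2.54 to 7.09 CPM, overlapped both. The median log2 difference was -1.73. In the fit on the 12 libraries alone, 2 were tested and 1 called, with a median of -0.95. The hemoglobin genes had 0 counts in all XX groups, for a reason that was not tested, so they give no measure of blood content. None of 3 other erythroid markers was called.

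**Figure D5:**
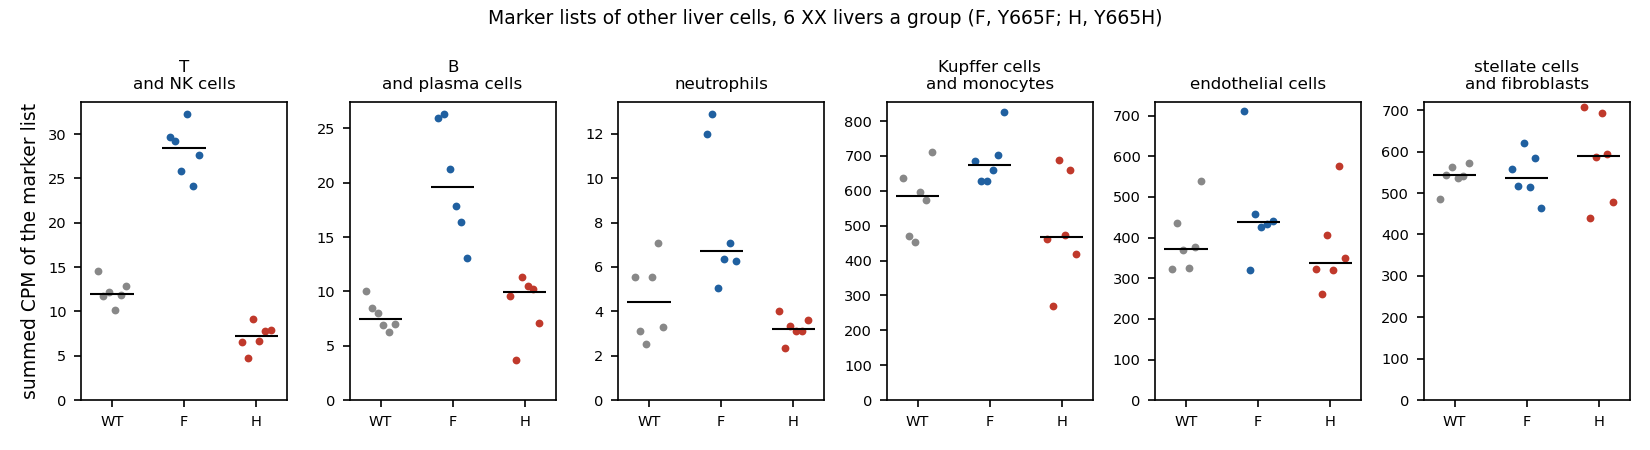
Summed CPM of the listed markers of 6 cell types present in the deposited tables, tested or not, in each of 18 XX livers; points are livers and bars are group medians of WT, Y665F (F) and Y665H (H), on axes that start at 0. T and NK cell sums are 4.79 to 9.18 CPM in Y665H and 24.1 to 32.3 CPM in Y665F, whereas endothelial and stellate sums overlap between the groups.

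The counts for stellate, endothelial and bile duct markers stand against 30.5% of all genes called higher and 26.0% called lower. Stellate cells and fibroblasts gave 4 of 11 called higher and 0 lower, with Lrat, which stores retinol as ester, at 0.73 (SE 0.15, adjusted p = 8.48e-05), while Col1a1, Col3a1 and Acta2 were not called. The count was 2 without Y665F replicate 4, Y665H replicate 3 or Y665H replicate 5. Endothelial cells gave 2 of 10 called lower and 0 higher, Vwf at -0.90 (SE 0.16, adjusted p = 8.65e-06) and Stab2 at -0.64 (SE 0.14, adjusted p = 1.61e-04), and 4 without Y665H replicate 5. Cholangiocytes gave 1 of 7 called higher, Sox9 at 0.80 (SE 0.23, adjusted p = 0.00296), or 3 without Y665H replicate 6. Cela1, an elastase, was the tested member of the pancreas list: it ran from 9.08 to 26.8 CPM (median 15.8) in the Y665H livers and from 3.84 to 4.96 CPM (median 4.57) in the Y665F livers, a difference of 1.95 (SE 0.20, adjusted p = 3.49e-10), while Pnlip and Ins2 had 0 counts in all Y665H livers. The Cyp4, cholesterol and other metabolic lists above moved in the same livers as the immune markers, and the part of the immune markers in those results was not tested.

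Of 23 cell cycle genes, 2 were called higher and 1 lower, against 30.5% and 26.0% of all genes. Mki67, a marker of cycling cells, ran from 1.42 to 17.4 CPM (median 5.55) in the Y665H livers and from 11.3 to 17.6 CPM (median 17.2) in the Y665F livers, and differed by -1.23 (SE 0.30, adjusted p = 6.30e-04). The median of the list, 0.19, changed sign in 4 alternatives. Without Y665H replicate 3, the highest Y665H liver, 8 were called lower, without Y665H replicate 6, 5 were called higher, and without Y665H replicates 2 and 6 together, 12 were called higher. The direction of this list changed with the libraries left out.

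The Y665H livers differed somewhat more among themselves than the Y665F livers, a result that rested on single libraries. The distance of a liver from the others of its group, the median over genes of the absolute log2 difference, averaged 0.179 ± 0.0325 (SD, n = 6) in Y665H and 0.137 ± 0.0238 (SD, n = 6) in Y665F. The difference of 0.0423 had an exact 2-sided permutation p of 0.0411, where 6 against 6 allow 0.00216 at the smallest. It lost its call without any 1 of 7 libraries, the largest p being 0.0909 without Y665F replicate 5, and also by total counts and with no filter. Y665H replicates 2, 3 and 6 lay farthest out, at 0.210, 0.201 and 0.216, and the other 3 at 0.149 to 0.151. The first 2 principal components, the main axes of variation among the 18 XX livers, held 51.0% and 8.09% of the variance. Y665H replicate 6 lay at -21.7 and 25.2 on them, within the WT ranges of -22.8 to -14.8 and 4.19 to 26.3. The other Y665H livers lay at -60.7 to -29.4 and -26.2 to -1.55. The reason for the place of replicate 6 was not tested.

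Scores of the sex-biased lists spread more among the Y665H livers than among the Y665F livers, with the WT livers in between. A list score was computed as the mean log2 CPM of its members relative to the 18 XX livers. For male-biased effectors it was -0.36, 1.06, 0.55, 1.40, 1.17 and 0.40 in Y665H replicates 1 to 6, an SD of 0.644, against an SD of 0.0772 in Y665F and 0.208 in WT. For female-biased effectors it was -0.21, -2.001, 0.21, -1.79, -1.23 and -0.67, an SD of 0.877, against 0.109 in Y665F and 0.505 in WT. The scores use a prior count of 2, and 5 of the 27 male-biased members were at 2 counts or fewer in every Y665F library, where that prior count limits the spread. Over the 22 male-biased and 29 female-biased members with a mean of at least 1 CPM in the 18 XX livers, the SDs were 0.616 and 0.989 in Y665H, 0.0686 and 0.125 in Y665F, and 0.202 and 0.519 in WT. The Y665H livers with the highest male-biased scores, replicates 4, 5 and 2, had the lowest female-biased scores, and replicates 1 and 3 the highest. All 6 Y665F livers lay below every Y665H liver in the male-biased score and above every Y665H liver in the female-biased score. A1bg, a member of the second list, was at 323 CPM in replicate 3 and at 0.673 to 23.9 CPM in the other Y665H livers. Without Y665H replicates 2 and 6, 8342 genes were called, and the median log2 difference was 2.16 for the male-biased and -0.09 for the female-biased effectors.

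The Y665H-minus-Y665F difference was not the same in XX and XY livers for 4189 genes (27.6%), by the interaction term of the same model. XX and XY libraries also differed in depth without overlap, so sequencing depth and sex cannot be told apart in this term. Of the 40 genes of the fixed panel, 22 had a called interaction. Among female-biased effectors, 29 of 31 had one, and among cholesterol synthesis genes 12 of 21. A1bg differed by -5.63 in XX and -12.13 in XY livers (interaction 6.50, SE 1.24). No bounds for levels near 0 were computed in XY livers, so the size of such large fitted values is uncertain. Cyp2b9, not called in XX at 0.60, differed by -4.93 in XY. Cux2 differed by -3.01 in XX and -7.50 in XY. Socs2 differed by -0.70 in XX and -3.24 in XY (interaction 2.55, SE 0.50, adjusted p = 2.71e-04), and Igf1 by -0.06 and -0.72. These genes had smaller differences in XX livers.

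The difference was larger in XX livers for several lipid genes with a called interaction. Scd1 differed by 3.48 in XX and 0.60 in XY livers (interaction 2.88, SE 0.53, adjusted p = 1.08e-04), and Insig1 by 0.84 and -0.39. Srebf2 differed by 0.55 and -0.14, and Abcb11 by 0.54 and -0.04. Ghr differed by -1.87 in XX and -0.87 in XY, a larger difference in XX livers. Alb (-1.03 and -1.07), Apoa4 (-1.57 and -1.51) and Cyp2d9 (5.71 and 6.72) had no called interaction, with terms of 0.04 (SE 0.14), -0.06 (SE 0.24) and -1.02 (SE 0.47).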

How the data were processed

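RNA was measured in 37 livers, with 1 table of raw read counts per gene symbol and library as deposited by the authors. Per the submitters' processing notes, FastQC 0.11.9, Trimmomatic 0.36, STAR, SAMtools 1.9, Picard 2.9.2, HTSeq 0.9.1 and mm10 were used. Their roles and settings, the gene annotation and the strand setting of the counting are not given in the sources used here, so reads of overlapping or antisense genes may not be separable. The tables hold 24421 gene rows, of which 95.7% carry a symbol found in GENCODE M21. Livers are numbered as in the sample titles; these numbers differ from those in the deposited file names for all 6 Y665H and 0 of the 6 Y665F XX livers. The 5 rows that name no gene stayed out of library sizes and tests.

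Genes were kept by filterByExpr (minimum count 10, minimum total 15). All 37 libraries were fitted in 1 quasi-likelihood model with edgeR 4.0.16 (R 4.3.3) on TMM-scaled counts, with 1 coefficient per genotype and sex, and the Y665H-minus-Y665F contrast in XX livers was tested with Benjamini-Hochberg adjustment over all 15152 genes. All adjusted p-values come from this fit unless another is named, and all differences are log2 Y665H minus Y665F. CPM values are TMM-scaled. The script was tested on simulated data. DESeq2 1.42.0 and limma 3.58.1 served as alternatives.

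Genes were named by a rule: a panel of 40 genes, the 8 highest and 8 lowest called genes without overlap between the groups and a mean of at least 1 CPM, and in each list the 2 called members highest and lowest in log2 difference. Further list members were chosen after their values were seen. The groups and gene lists were chosen with earlier results of these data known. A few genes picked by this rule are left out here. Promoter sequences are from RefSeq (GRCm38.p6).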

Additional observations from a re-analysis of the deposited data

Results flagged for a closer look

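In 25 of 241 sets of 6 livers (10.4%), the highest or lowest liver stood apart from the others by Dixon's criterion at its 95% level. That level flags about 1 in 20 sets where values are normal and sets are independent. The criterion was applied to CPM values and the sets share the same livers, so no excess over chance can be read from the 10.4%. Y665F replicate 2 and Y665H replicate 3 each accounted for 5 of the 25 flagged sets. Y665F replicate 2 stood apart for Sqle at 119.9 CPM, Srebf2 at 96.4 CPM, Idi1 at 72.7 CPM, Cpt1a at 742 CPM and Tat at 3387 CPM. Y665H replicate 3 stood apart for A1bg at 323 CPM, Cyp3a16 at 2.70 CPM, Onecut1 at 31.4 CPM, Ifit1 at 17.4 CPM and Mki67 at 17.4 CPM. Y665H replicate 1 did so for Sult2a1 at 24.4 CPM and Pnpla3 at 4.43 CPM. Y665H replicate 2 did so for Mup20 at 754 CPM, Sult2a7 at 71.7 CPM and Cyp39a1 at 71.2 CPM. Y665H replicate 6 did so for Socs2 at 13.9 CPM, Hsd17b13 at 147 CPM and Ugt1a2 at 1.87 CPM. Y665H replicate 4 did so for Fgf21 at 3.35 CPM, whose log2 difference of 1.43 became 0.51 (edgeR adjusted p = 0.418) without that liver. In Y665F, replicate 3 stood apart for Cyp2d9 at 9.89 CPM and Cyp2b13 at 21.8 CPM, replicate 5 for Onecut1 at 130.8 CPM, replicate 6 for Adra2c at 18.9 CPM and replicate 1 for Ugt3a1 at 24.0 CPM.

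For 22 of the 40 panel genes the Y665H-minus-Y665F difference was not the same in XX and XY livers by the interaction term. In the growth hormone pathway the XX-minus-XY log2 term was -0.9998 for Ghr, 1.23 for Prlr, 2.55 for Socs2, 0.66 for Igf1, 0.60 for Igfals and 4.49 for Cux2. Among sex-biased enzymes it was 6.50 for A1bg, 5.53 for Cyp2b9, 3.91 for Cyp3a41a, -2.99 for Elovl3 and -2.27 for Cyp7b1. Among genes of sterol, bile acid and lipid handling it was 1.24 for Sqle, 0.69 for Srebf2, 1.23 for Insig1, 0.58 for Abcb11, 1.24 for Fasn, 2.88 for Scd1 and 1.21 for Cd36. It was -3.41 for Saa2 and 0.98 for Ifit1.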

How the results depend on the processing

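The number of called genes stayed within 1.5 times the 8564 of the report in every alternative except a minimum difference of 1 on the log2 scale, which left 1703, of which 19.2% were higher in Y665H. The share of calls that were higher, 53.9%, was 50.5% with DESeq2, 50.6% with RLE size factors, 50.5% at a mean of at least 1 CPM, 48.1% with no filter, 55.2% with the share of reads in no gene as a covariate, 49.8% in the 12 libraries alone and 67.4% by total counts. Without 1 library, calls ran from 7920 (without Y665H replicate 2) to 8922 (without Y665H replicate 6), and the share higher from 52.9% to 54.4%. Replicate numbers are those of the sample titles, and the names of the deposited files give other numbers for all 6 Y665H and all 6 WT XX livers. By the titles, deviations of same-numbered livers correlated from -0.0364 to 0.150, 2 of the 6 Y665H livers correlated best with their own number, and with the replicate number as a block 6602 genes were called, 48.7% of them higher, against 6639 in the same 12 libraries without it. By the file names, which were tried after seeing the data, the correlations ran from -0.131 to 0.0528, 0 of the 6 correlated best with their own number, and the block gave 6133 calls, 48.6% of them higher. The interaction count of 4189 became 973 at a minimum difference of 1 and ran from 3652 to 5190 without 1 library. The difference in distance between groups lost its call by total counts (0.0315, exact permutation p = 0.0541) and with no filter (0.0277, exact permutation p = 0.0758), and ran from 0.0319 to 0.0530 without 1 library. Of 137 tested genes that the rule names, 118 were called. Of these, 85 were called in all 24 alternatives, 13 in every alternative that tested them (at least 20), and 20 lost the call in at least 1, 13 of these without 1 library. No called gene among them changed direction. Of the 19 not called, 9 were called in at least 1 alternative, among them Plin2 in 5 of 24, Socs2 and Saa2 in 4 and Cish and Cyp2b9 in 3. The fits without Y665H replicates 2 and 6 together (8342 calls) and in the 18 XX libraries alone (7287 calls), and the scores over members with a mean of at least 1 CPM, were chosen after seeing the data. Depth limits the genes near 0 CPM. Bounds or counting intervals are given only where a group of XX livers summed to 3 counts or fewer. Other genes near 0 CPM, such as Adra2c, Insrr and Cyp3a16, carry only a fitted value.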
